A study of Mus musculus with 8 samples.

Results

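The genes described here are 49 genes of DNA replication and mitosis, 20 S-phase genes (Pcna to E2f1) and 29 mitotic genes (Mki67 to Hmmr), out of 24063 gene symbols measured by RNA-seq. They were chosen by name, and all 49 were present in every table. RNA came from tubuloids, tubule-like structures that postnatal mouse kidney cells form in Matrigel. All 8 libraries carried the genotype Pkd2fl/fl Pax8rtTA TetOCre mTmG, and the labels gave the tissue as kidney of postnatal day 7 to 10. In this genotype the Pax8 promoter drives the transactivator in renal epithelia, doxycycline then switches on Cre, and Cre removes the floxed part of Pkd2, which encodes polycystin-2, so other cells in the culture keep the gene. The 4 DOX libraries (9, 12, 19 and 21) came from cultures given doxycycline for 3 days from day 3, and the 4 DMSO libraries (3, 5, 15 and 20) from cultures given the vehicle dimethyl sulfoxide on the same days, with RNA taken on day 7. No library came from cells given doxycycline without Cre, so the drug and the recombination cannot be told apart. The sources used here do not say which animals or cultures gave which library, so p-values measure the spread between these libraries only.

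Before a cell divides, the MCM helicase is loaded onto replication origins by Cdc6 and Cdt1, and cyclin E activity and E2F transcription factors open S phase, in which polymerases, the Pcna clamp and nucleotide-making enzymes copy the DNA. Mitosis then uses cyclin B with Cdk1, Aurora and Polo kinases, centromere and kinetochore proteins, spindle motors and a checkpoint that holds back the anaphase-promoting complex. Transcripts of the first set peak around the entry to S phase and those of the second in G2 and mitosis, and both are low in resting tubule cells. In polycystic kidneys, extra division of tubule cells is part of how cysts grow, and the study examined proliferation marker genes beside the shape of the tubuloids.

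No member gene passed the test. DESeq2 gave an adjusted p to all 49 members and called 0 of them (adjusted p up to 0.05 with a difference of 1.5-fold or more), against 25 of 17011 genes tested (0.147%). The smallest adjusted p among members was 0.673, for Ccne2. The quasi-likelihood test of edgeR also called 0 members, and called 0 of all 15562 genes it tested (0.0%). At an unadjusted p under 0.05, DESeq2 had Ccne2 and Cdca8, 2 of 49. The share was 4.67% of all genes and 6.41% of genes with a mean normalised count of at least 500. By the same limit edgeR had 1 S-phase and 1 mitotic gene, against 3.06% of all genes. By the fitted log2 fold change (DOX over DMSO), 16 of 20 S-phase genes and 28 of 29 mitotic genes were on the lower side, against 51.4% of the 10716 genes with a mean normalised count of at least 500. The median was -0.32 over the S-phase genes (from -1.23 to 0.50) and -0.62 over the mitotic genes (from -1.01 to 0.06), beside -0.01 over those 10716 genes. In the same fit 8 of 8 epithelial (Pax8 only at -0.002) and 9 of 10 stromal markers were also on the lower side (medians of -0.59 and -0.91). Of the endothelial markers, 4 of 6 were on the higher side (median 0.57). Collecting duct markers were lower in 5 of 7 (median -1.01), and proximal tubule markers in 3 of 6 (median -0.04). Macrophage and blood markers were lower in 4 of the 4 with a p (median -1.68). None of these markers was called, and their part in the members' values was not tested. Fitted values lay at least 1.5-fold lower for 3 S-phase and 15 mitotic genes, against 10.1% of the same background. The 95% interval of the fitted change included a 1.5-fold lower level for 46 of 49 members. Members vary together within a library, so their directions are not independent of each other. In bulk RNA, fewer dividing cells and less RNA per dividing cell cannot be told apart.

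Library totals ran from 63922677 to 102716313 counts. Reads shared by several transcripts of a gene appear to have been counted for each, as such transcripts of most members had nearly equal totals. DMSO 20 and DOX 19 stood apart, with 13243 and 13599 genes detected beside 17054 to 17903 in the others, and values without both are given beside several members in which they are extreme. DMSO 15 and DOX 21 were male by Xist and Y-linked transcripts. The study used a pair of flow cell lanes, and which library ran on which is not given in the sources used here. Pkd2 itself had 4813 to 7538 normalised counts in DMSO and 4136 to 5952 with DOX (fitted log2 fold change -0.31, DESeq2's adjusted p = 0.999), but counts over whole transcripts do not check the loss of the floxed part. All 8 epithelial markers were detected in every library, with summed TPM of 750 to 3169 in DMSO and 982 to 2018 in DOX libraries. The 6 proximal tubule markers summed to 6.26 to 23.7 TPM in DMSO and 7.48 to 12.7 TPM in DOX libraries, mostly from Slc5a2, with Slc34a1 at 0 in all libraries but DOX 9. The 7 collecting duct markers summed to 14.1 to 482 TPM in DMSO and 41.2 to 117 TPM in DOX libraries, with Fxyd4 and Gata3 detected in every library and Aqp2 at 0 in all but DOX 9. The 10 stromal markers summed to 327 to 3967 TPM in DMSO, the highest in DMSO 15, and to 683 to 1127 TPM in DOX libraries. The endothelial list (6 genes) summed to 125 to 474 TPM in DMSO and 163 to 864 TPM in DOX libraries, nearly all from Emcn and Plvap, with Pecam1 and Cdh5 each under 1 TPM in every library. The macrophage and blood list (7 genes) summed to 16.0 to 29.7 TPM in DMSO and 4.41 to 12.2 TPM in DOX libraries, with Adgre1 at 0 in all but 1 library.

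Promoter letters differed between the lists. The cell cycle genes homology region (CHR, searched as TTTGAA and TTCGAA) is known as the element through which the DREAM complex and B-Myb with FoxM1 time mitotic genes, and the E2F letters (TTT, then 2 bases that are each G or C, then CGC) stand for the site of E2F factors at S-phase genes. In RefSeq promoter windows of 300 bases (250 before to 50 after each gene's start, build GRCm38.p6, both strands), 42 of 49 members were matched. Aurkb, Ccna2, Ccne2, Gins2, Kif20a, Mcm4 and Tpx2 were not. CHR letters were in 21 of 26 mitotic windows (80.8%) and 3 of 19 S-phase windows (15.8%), with 19.2% of all 32851 windows holding them. Within 50 bases of the start, they were in 20 of 26 mitotic windows (76.9%), 0 of 19 S-phase windows and 5.31% of all windows. E2F letters were in 7 of 19 S-phase windows (36.8%), those of Mcm3, Mcm5, Mcm6, Mcm7, Cdc6, Cdt1 and Pola1, in 1 of 26 mitotic windows (3.85%), that of Cdk1, and in 2.26% of all windows. The CCAAT box, a general promoter element, was in 21 of 26 mitotic windows (80.8%), 10 of 19 S-phase windows (52.6%) and 37.4% of all windows, and it stood together with CHR letters in 19 mitotic windows (73.1%) and 7.52% of all windows. A match of letters is not evidence that a factor binds there in these cells, and a window without a match says only that these letters are absent from it.

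The 6 promoters below show these layouts and belong to genes the values below turn on or to the clearest examples of a motif. Each line gives the 150 bases that end just before the annotated start, 5′ to 3′ on the gene's strand. The start is that of the transcript the RefSeq promoter table uses, which for Cdc6, Tyms and Top2a lies inside the full span of the gene, so for Cdc6 the stretch lies downstream of the outermost start. CHR, E2F and CCAAT letters on either strand are in capitals (so ATTGG is CCAAT read on the other strand, GCGGGAAA is an E2F match and TTCAAA is TTTGAA). Mcm6 and Cdc6 hold E2F letters, Tyms holds none of the 3 motifs in this stretch, Cdk1 holds both E2F and CHR letters, and Cdc20 and Top2a hold CHR with CCAAT letters.
Mcm6 (chr1:128359706-128359855, minus strand): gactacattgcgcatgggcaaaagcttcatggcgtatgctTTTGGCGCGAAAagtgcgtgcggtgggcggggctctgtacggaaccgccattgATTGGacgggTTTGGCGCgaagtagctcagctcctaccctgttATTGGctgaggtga
Cdc6 (chr11:98908001-98908150, plus strand): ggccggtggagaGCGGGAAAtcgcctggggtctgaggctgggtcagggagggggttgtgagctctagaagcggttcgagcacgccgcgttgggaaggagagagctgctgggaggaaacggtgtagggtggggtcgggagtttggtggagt
Tyms (chr5:30073626-30073775, minus strand): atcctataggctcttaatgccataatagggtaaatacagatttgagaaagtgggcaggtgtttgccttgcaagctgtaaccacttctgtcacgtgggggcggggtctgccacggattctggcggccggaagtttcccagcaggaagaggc
Cdk1 (chr10:69352913-69353062, minus strand): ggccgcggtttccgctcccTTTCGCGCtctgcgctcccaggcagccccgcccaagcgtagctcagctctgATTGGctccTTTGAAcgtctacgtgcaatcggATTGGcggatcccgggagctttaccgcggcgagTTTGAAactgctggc
Cdc20 (chr4:118437344-118437493, minus strand): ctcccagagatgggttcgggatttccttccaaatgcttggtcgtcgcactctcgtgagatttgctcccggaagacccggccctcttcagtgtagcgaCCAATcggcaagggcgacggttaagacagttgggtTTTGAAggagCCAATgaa
Top2a (chr11:99024190-99024339, minus strand): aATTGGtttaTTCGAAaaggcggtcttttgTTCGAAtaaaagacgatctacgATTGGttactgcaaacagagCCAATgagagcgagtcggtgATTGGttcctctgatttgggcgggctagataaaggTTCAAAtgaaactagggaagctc
In Mcm6 the first capital stretch is a pair of E2F matches on opposite strands that overlap, with a further match nearer the start. Cdk1 has its E2F match farthest from the start, at bases -131 to -124, and its CHR matches at -71 to -66 and -15 to -10 (the base before the start is -1). Top2a holds 3 CHR matches in this stretch, at -140 to -135, -120 to -115 and -23 to -18, and 1 more farther out at -179 to -174. Cdc20 has its CHR match at -18 to -13.

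**Figure D1:**
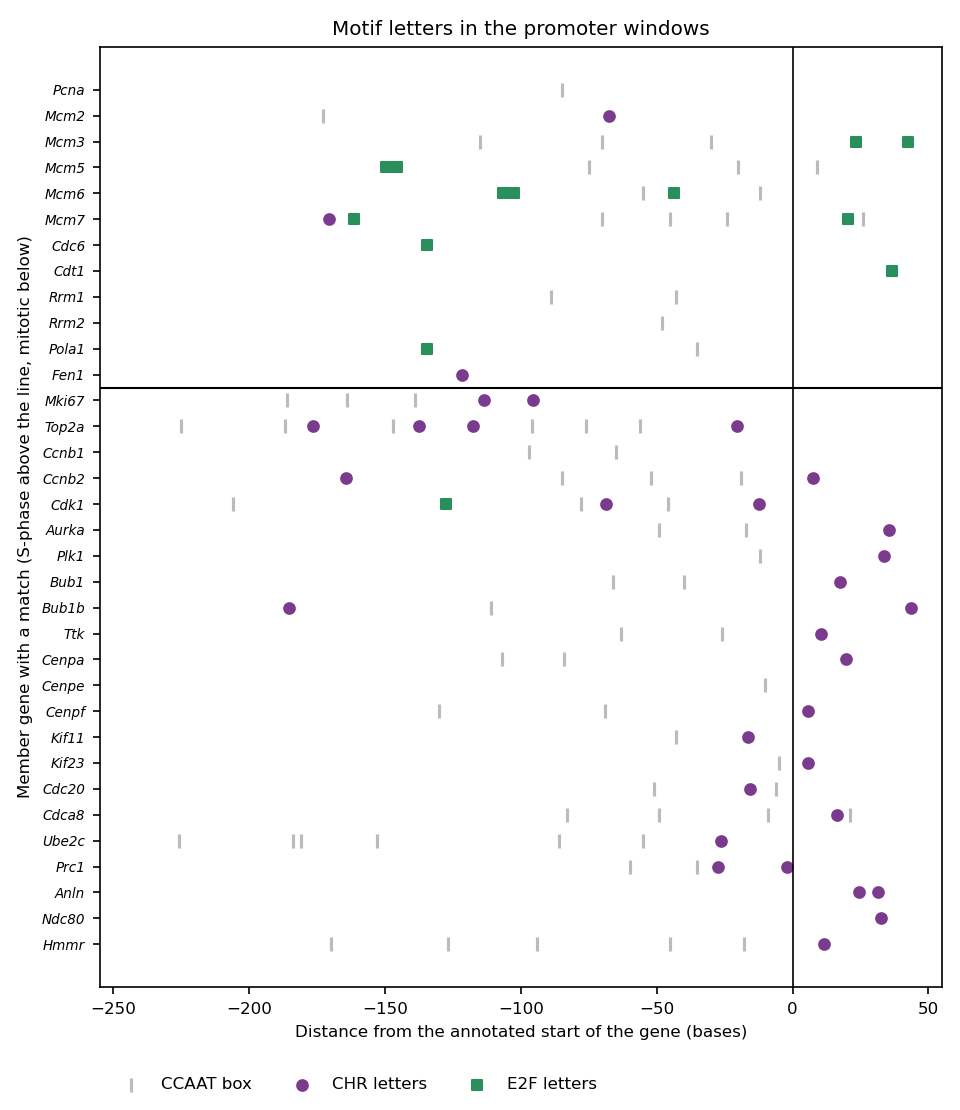
Positions of CHR (circles), E2F (squares) and CCAAT (bars) letters by distance in bases from the annotated start (0 on the horizontal axis), for each member gene with at least 1 match. CHR letters gather near the start of mitotic genes (20 of 26 windows within 50 bases), while E2F letters appear in 7 S-phase windows and that of Cdk1.

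The S-phase genes were not called in either direction, and their fitted values had both signs within the licensing genes and within the cyclin E and E2F genes. Levels are compared here per length, as the mean TPM over 8 libraries of the transcript of each gene with the highest mean. Pcna was highest at 78.5 TPM, followed by Rrm2 (48.6), Mcm6 (47.9), Mcm7 (42.2) and Rrm1 (36.6). Cdc6 (3.09) and Pola1 (2.81) were lowest. Neighbours in this order are not told apart by their spread, since Pcna alone ran from 43.1 to 113 TPM between libraries and Rrm2 from 23.6 to 91.8. The lowest raw count of any member in any library was 100, for Pola1 in DOX 19.

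Among the origin licensing and helicase genes, 7 of 9 fitted values were below 0, with a median of -0.21 (from -0.41 to 0.46). Mcm2 (chr6:88883474-88898780; gene coordinates here and below are RefSeq's on GRCm38.p6), a subunit of the MCM helicase, had normalised counts (counts divided by the DESeq2 size factor) of 3969, 3142, 3610 and 5735 in DMSO 3, 5, 15 and 20. In DOX 9, 12, 19 and 21 it had 3812, 5043, 514 and 3032. DOX 19 alone was far below the rest, DOX 21 lay just under the lowest DMSO library, and DOX 9 and DOX 12 were inside the DMSO range. The log2 fold change of Mcm2 was -0.41 (SE 0.604, DESeq2's adjusted p = 0.999), and it turned to 0.16 without DMSO 20 and DOX 19. The other subunits Mcm3, Mcm4, Mcm5 and Mcm6 had fitted values of -0.21, -0.14, -0.30 and -0.33, and Mcm7 had 0.13. Some of these signs turned too, as Mcm3 was at 0.093 without DOX 19 and Mcm4 at 0.013 without DOX 9. Without DMSO 20 and DOX 19, Mcm7 was at -0.16. Mcm7 shares exon bases with Ap4m1 and Cops6 on the opposite strand, and whether the counting used strand is not given in the sources used here.

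Cdt1, which loads the helicase and is destroyed once S phase starts, stood on the other side from most S-phase genes. Its normalised counts were 612, 769, 612 and 762 in the DMSO libraries and 686, 875, 1424 and 812 in the DOX libraries, in the order above. The highest value was that of DOX 19. DOX 12 and DOX 21 were also above every DMSO library, and DOX 9 was inside the DMSO range. The fitted change was 0.46 (SE 0.298, DESeq2's adjusted p = 0.999) and 0.27 without DMSO 20 and DOX 19. Gins2, a subunit of the GINS complex of the active helicase, had 1224, 1721, 2181 and 1168 against 866, 1611, 1198 and 1076 normalised counts. DOX 9 was the lowest library and DMSO 15 the highest. Its log2 fold change was -0.41 (SE 0.322, DESeq2's adjusted p = 0.999), and 67.3% of its exon bases overlap exons of Gse1 on the opposite strand.

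All 3 enzymes of nucleotide supply had fitted values below 0, with a median of -0.37. Tyms (chr5:30038546-30073645), thymidylate synthase, was the single member of the 49 whose groups did not overlap, against 3.63% of genes with a mean normalised count of at least 500. It had 7377, 8542, 7304 and 6612 normalised counts in DMSO libraries and 3073, 6497, 6378 and 4242 in DOX libraries, a mean of 7459 ± 800.1 against 5048 ± 1675 (SD, n = 4 each). The nearest values, DMSO 20 and DOX 12, lay close together, while DOX 9 and DOX 21 were well below every DMSO library. The log2 fold change was -0.56 (SE 0.295, DESeq2's adjusted p = 0.967). A two-sided exact permutation test of its log2 normalised counts gave p = 0.0286, the smallest that 70 assignments of 4 against 4 can give. Groups without overlap always give this value, so it adds nothing to the lack of overlap. Rrm1 and Rrm2, the subunits of ribonucleotide reductase, had fitted values of -0.13 and -0.37 with overlapping groups, and Rrm1 turned to 0.091 without DMSO 15.

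The clamp, fork and chromatin assembly genes all had fitted values below 0 (5 of 5, median -0.50). Pcna (chr2:132249286-132253180), the sliding clamp, had 5063, 5287, 4764 and 3688 normalised counts in DMSO libraries. In DOX libraries it had 2706, 4068, 2326 and 4559. DOX 9 and DOX 19 were below every DMSO library, and DOX 12 and DOX 21 were inside the DMSO range. The log2 fold change of Pcna was -0.46 (SE 0.29, 95% interval -1.03 to 0.11, DESeq2's adjusted p = 0.999).

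Rfc4, of the clamp loader, had 1674, 2515, 2179 and 2552 against 978, 1768, 253 and 1771 normalised counts, with DOX 19 far below all other libraries. Its log2 fold change of -0.90 carried an SE of 0.565 (DESeq2's adjusted p = 0.999) and was -0.48 without DMSO 20 and DOX 19. Fen1, the flap endonuclease of Okazaki fragments, had 5635, 5068, 5817 and 6484 against 4242, 7939, 3635 and 5544, and its highest value was in DOX 12. The fitted change of Fen1 was -0.11 (SE 0.293, DESeq2's adjusted p = 0.999) and turned to 0.11 without DMSO 20 and DOX 19. Exon bases of Rfc4 (12.7%, with Eif4a2) and Fen1 (5.37%, with Tmem258) are shared with genes on the opposite strand. Pola1 and Chaf1b, of the primase-polymerase and the chromatin assembly factor, had fitted values of -0.79 and -0.50.

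Cyclin E and E2F genes differed in sign, with fitted values of -1.23 for Ccne2, 0.11 for Ccne1 and 0.50 for E2f1. Ccne2 (chr4:11190433-11204779), one of the cyclin E genes that start S phase with Cdk2, had 7403, 11523, 12852 and 16652 normalised counts in DMSO libraries. In DOX libraries it had 1650, 6674, 4850 and 7443. DMSO 3 lay just under DOX 21, the other DMSO libraries were above all DOX libraries, and DOX 9 was the lowest. Means were 12108 ± 3816 and 5154 ± 2577 (SD, n = 4 each), 2.35-fold lower by the fit (log2 fold change -1.23, SE 0.487, DESeq2's adjusted p = 0.673). The exact permutation p of its log2 normalised counts was 0.0571 (two-sided). Ccne2 shares 17.4% of its exon bases with Ints8 on the opposite strand. E2f1 had its lowest values in DMSO 3 and DMSO 5 and its highest in DOX 19, and its fitted value was 0.21 without DMSO 20 and DOX 19, where Ccne1 turned to -0.30, and 0.93 without DMSO 15.

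**Figure D2:**
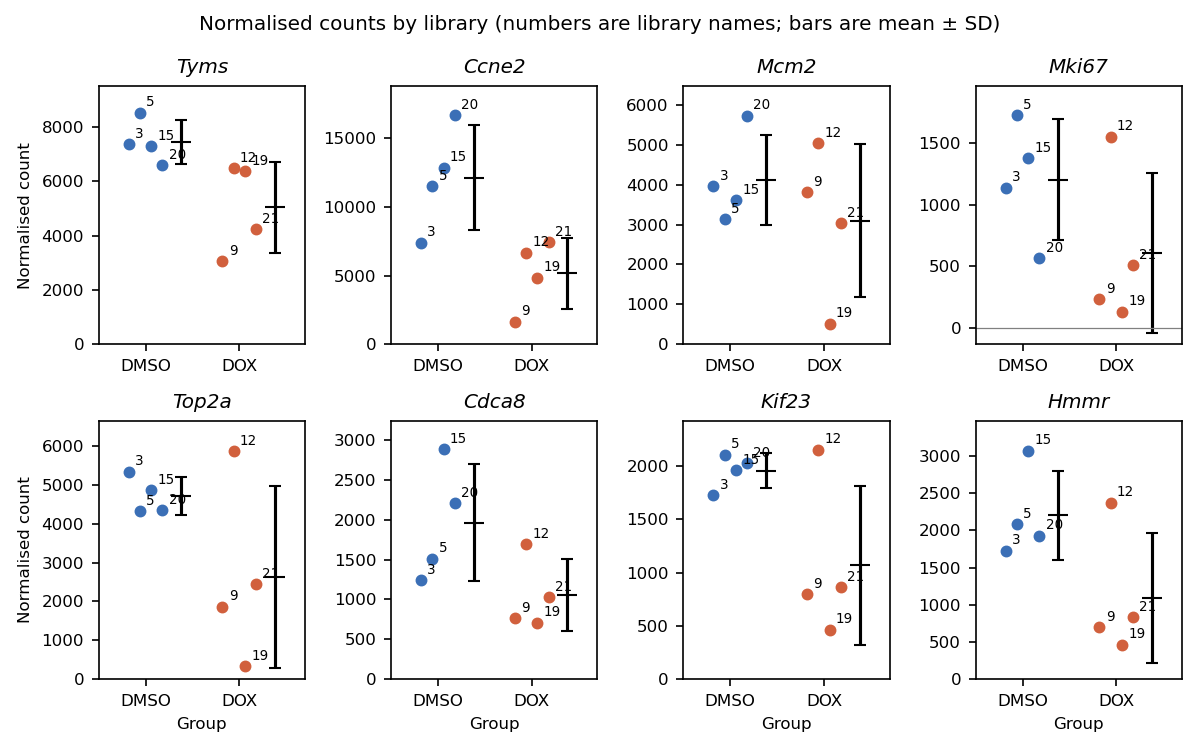
Normalised counts (vertical axes) of 8 member genes in each DMSO and DOX library, with points labelled by library and bars giving mean ± SD (n = 4). Tyms is the only one whose groups do not overlap, and DOX 12 sits with the DMSO libraries for Mki67, Top2a, Kif23 and Hmmr.

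The mitotic genes were not called either, although 28 of 29 had fitted values below 0, and every role group had a negative median. By mean TPM of the transcript with the highest mean, Ube2c was the most abundant (55.9 TPM), followed by Birc5 (41.4), Cenpa (37.8), Cdc20 (35.9) and Ccna2 (34.7). The place of Birc5 depends on the transcript taken. Its 2 transcripts had total counts of 14192 and 15210, and the one with most counts had a mean of 12.6 TPM. Mki67 was the least abundant (2.24 TPM), next to Cenpf (3.19) and Cenpe (3.69). The spread again exceeded the steps between neighbours, as Ube2c ran from 15.8 to 113 TPM and Cenpa from 16.7 to 73.9 between libraries.

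Mki67 encodes Ki-67, the antigen most used to mark dividing cells, and Top2a the topoisomerase that untangles chromosomes. Mki67 (chr7:135689784-135716450) had 1140, 1732, 1379 and 565 normalised counts in DMSO 3, 5, 15 and 20. In DOX 9, 12, 19 and 21 it had 233, 1556, 132 and 508. The DOX libraries split, with DOX 12 second only to DMSO 5 and the others below every DMSO library. Its means were 1204 ± 491 and 607 ± 652 (SD, n = 4 each), and its log2 fold change was -0.99 (SE 0.753, 95% interval -2.46 to 0.49, DESeq2's adjusted p = 0.999). Top2a (chr11:98992947-99024199) showed the same split, with 5344, 4319, 4862 and 4359 normalised counts in DMSO and 1868, 5879, 334 and 2437 in DOX libraries. DOX 12 had the highest count of all 8 and DOX 19 the lowest. The fitted change of Top2a was -0.84 (SE 0.686, DESeq2's adjusted p = 0.999). Without DMSO 20 and DOX 19, Mki67 was at -0.88 and Top2a at -0.51. Without DOX 12 they were at -2.05 and -1.61 (DESeq2's adjusted p = 0.162 and 0.576).

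The mitotic cyclins and kinases (Ccna2, Ccnb1, Ccnb2, Cdk1, Aurka and Plk1) all had fitted values below 0, from -0.95 to -0.49. Cdk1 (chr10:69335146-69352912), the kinase that drives entry into mitosis, had 4905, 5306, 7265 and 2172 against 2137, 4895, 2565 and 2915 normalised counts. Ccnb1, its cyclin partner, had 3515, 3698, 5378 and 1443 against 1451, 3507, 1424 and 1934. Ccnb2, a related cyclin B, had 2086, 2391, 3337 and 699 against 813, 1887, 746 and 974. In all 3 genes DMSO 15 was the highest, DMSO 20 lay with the low DOX libraries, and DOX 12 lay near DMSO 3 and DMSO 5. The log2 fold changes were -0.65 for Cdk1 (SE 0.439), -0.75 for Ccnb1 (SE 0.483) and -0.95 for Ccnb2 (SE 0.53), with DESeq2's adjusted p = 0.999 for each. Without DMSO 20 and DOX 19, Ccnb2 had a log2 fold change of -1.08 (DESeq2's adjusted p = 0.373). Without DMSO 15 the values were -0.40 for Cdk1, -0.47 for Ccnb1 and -0.64 for Ccnb2.

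The chromosomal passenger complex (Aurkb, Birc5 and Cdca8) corrects the attachment of chromosomes to the spindle. Cdca8 (chr4:124918465-124936917), which encodes its subunit borealin, had the smallest unadjusted p of the mitotic list. It had 1244, 1512, 2885 and 2207 normalised counts in DMSO and 765, 1696, 709.6 and 1029 in DOX libraries. DOX 12 was above DMSO 3 and DMSO 5, and the other DOX libraries were below every DMSO library. Its log2 fold change was -0.90 (SE 0.416, DESeq2's adjusted p = 0.86). Birc5 (survivin) and Aurkb had fitted values of -0.55 and -0.34, and Birc5 was lowest in DMSO 20, at 581 normalised counts (log2 fold change -0.85 without DMSO 20 and DOX 19, -0.22 without DMSO 15 and -0.33 without DOX 9).

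Among the checkpoint and anaphase-promoting complex genes (Bub1, Bub1b, Ttk, Cdc20 and Ube2c), Bub1 had the most negative fitted value. Bub1, a checkpoint kinase, had 3802, 3731, 5412 and 2330 against 1311, 3644, 2716 and 1396 normalised counts. DOX 9 and DOX 21 were below every DMSO library, while DOX 12 and DOX 19 were inside the DMSO range. The log2 fold change of Bub1 was -0.75 (SE 0.44, DESeq2's adjusted p = 0.999). Bub1b, the checkpoint protein BubR1, was the single mitotic gene with a positive fitted value (0.06), its highest count was in DOX 19, and its fitted value was -0.40 without DMSO 20 and DOX 19. Ttk, Cdc20 and Ube2c had -0.33, -0.52 and -0.54.

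At the centromere and kinetochore (Cenpa, Cenpe, Cenpf, Ndc80 and Nuf2), the median fitted value was -0.73 (from -0.84 to -0.43). Ndc80 (chr17:71496100-71526857), which binds spindle microtubules at the kinetochore together with Nuf2, had 1158, 1595, 1551 and 1643 normalised counts in DMSO libraries. In DOX libraries it had 368, 1427, 879 and 645. DOX 12 alone was within the DMSO range. The log2 fold change of Ndc80 was -0.84 (SE 0.433, DESeq2's adjusted p = 0.945), and that of Nuf2 was -0.48. Cenpa, the centromeric histone, had -0.74, and Cenpe and Cenpf had -0.43 and -0.73.

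Spindle assembly genes (Kif11, Nusap1, Tpx2 and Hmmr) held the most negative value of the mitotic list, that of Hmmr, and a value near 0, that of Tpx2. Hmmr (chr11:40701388-40733464), a microtubule-associated protein of the spindle, had 1728, 2084, 3072 and 1928 against 696, 2374, 465 and 829 normalised counts. The DOX libraries other than DOX 12 were all below every DMSO library. The fit put Hmmr 2.02-fold lower (log2 fold change -1.01, SE 0.539, DESeq2's adjusted p = 0.976), and -0.82 on the log2 scale without DMSO 20 and DOX 19. Tpx2, which activates Aurora A on the spindle, had 11576, 8397, 20437 and 11786 against 6835, 15621, 17811 and 7625. DMSO 15 and DOX 19 were its highest libraries. Its log2 fold change of -0.12 (SE 0.44, DESeq2's adjusted p = 0.999) turned to 0.18 without DMSO 15, 0.070 without DOX 9 and 0.043 without DOX 21.

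Midzone and cytokinesis genes (Kif20a, Kif23, Prc1 and Anln) build the central spindle and the cleavage furrow. Kif23 (chr9:61917277-61946810), a motor of the centralspindlin complex, had 1728, 2105, 1961 and 2027 normalised counts in DMSO and 795, 2153, 465 and 859.9 in DOX libraries. The DMSO libraries were close to each other, DOX 12 was above all of them, and the other DOX libraries were all far below them. Its log2 fold change was -0.87 (SE 0.476, DESeq2's adjusted p = 0.99) and -0.60 without DMSO 20 and DOX 19. Prc1, which bundles midzone microtubules, had 9325, 8533, 17673 and 10172 against 4952, 13738, 4586 and 6523. Kif20a, another midzone motor, had 10953, 10656, 16319 and 9968 against 7060, 17069, 7551 and 8293. DOX 12 had the highest count of Kif20a and DMSO 15 that of Prc1. The fitted values were -0.62 for Prc1 (SE 0.448) and -0.26 for Kif20a (SE 0.368), with DESeq2's adjusted p = 0.999 for both. Kif20a shares 29.3% of its exon bases with Cdc23 on the opposite strand, and Prc1 11.1% with Rccd1.

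**Figure D3:**
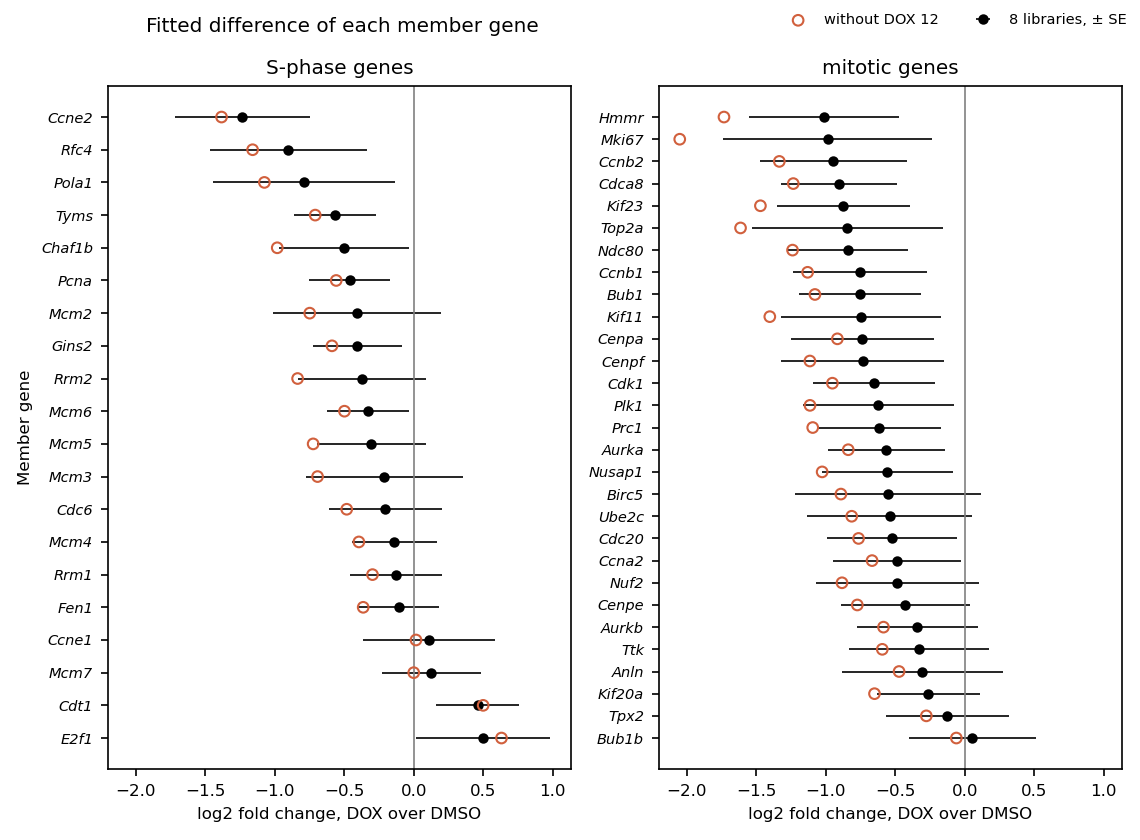
Fitted log2 fold change of each member (horizontal axis, DOX over DMSO), as filled points ± SE from all 8 libraries and as open circles from the fit without DOX 12. Filled points run from -1.23 to 0.50 for S-phase and from -1.01 to 0.06 for mitotic genes, and without DOX 12 every mitotic gene lies below 0.

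The libraries of one group differed as much as the groups did. The mean of log2(normalised count + 1) over the S-phase genes was 11.45, 11.45, 11.67 and 11.20 in DMSO 3, 5, 15 and 20, and 10.71, 11.67, 10.77 and 11.12 in DOX 9, 12, 19 and 21. The group means were 11.44 ± 0.192 and 11.07 ± 0.441 (SD, n = 4 each), a difference of -0.37, and DOX 12 was above all 4 DMSO libraries. Over the mitotic genes the same mean was 11.32, 11.44, 11.98 and 10.65 in DMSO libraries and 10.07, 11.61, 10.54 and 10.59 in DOX libraries. The group means were 11.35 ± 0.549 and 10.70 ± 0.649 (SD, n = 4 each), a difference of -0.65, with DMSO 20 near the low DOX libraries and DOX 12 near the high DMSO libraries. The mitotic mean minus the S-phase mean was -0.12, -0.01, 0.32 and -0.55 in DMSO libraries and -0.64, -0.06, -0.23 and -0.54 in DOX libraries, so groups overlapped on that measure too.

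**Figure D4:**
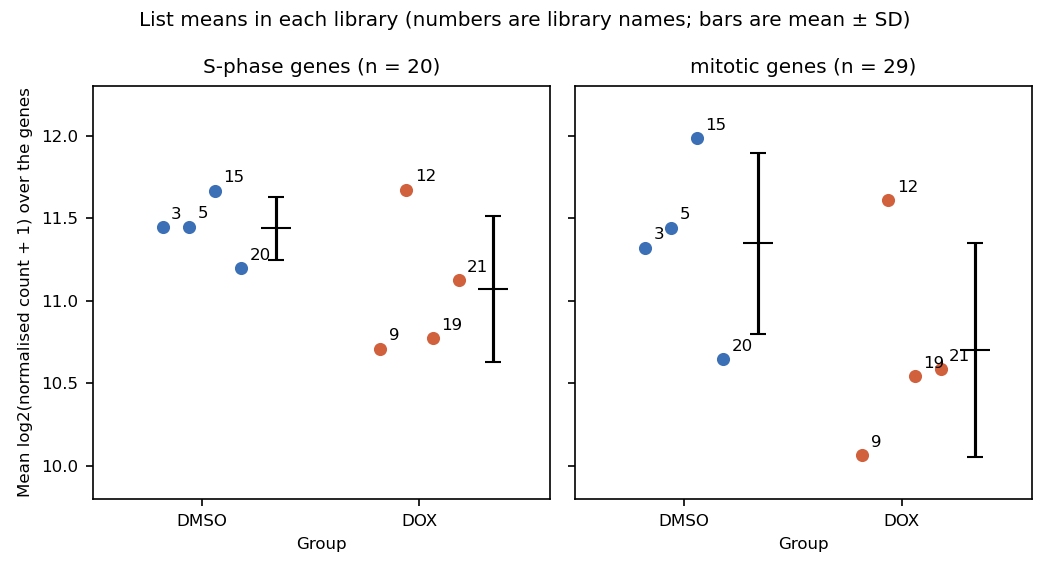
Mean log2(normalised count + 1) over the 20 S-phase genes (left) and the 29 mitotic genes (right) in each library, labelled by library, with bars for the group mean ± SD (n = 4). The DMSO and DOX libraries overlap in both panels, DOX 9 is lowest in both, and DOX 12 lies among or above the DMSO libraries.

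Single libraries held the same place across many members. DOX 9 had the lowest normalised count in 9 of 20 S-phase genes (45%) and 15 of 29 mitotic genes (51.7%), against 10.2% of the 10716 genes with a mean of at least 500. DMSO 15 had the highest count in 19 of 29 mitotic genes (65.5%), against 14.8% of that background. DOX 12 had the highest in 7 of 20 S-phase genes (35.0%), against 4.13%, and was lowest in 0 of 49. DOX 9 and DOX 21 were below the gene's mean over the libraries in every mitotic gene, and DMSO 15 and DOX 12 above it in every one. The median deviations of DOX 9 and DOX 21 were -0.82 and -0.39 (log2), beside 0.07 and 0.04 over that background. DMSO 15 was also the library with the lowest summed epithelial markers (750 TPM, beside 982 to 3169 in the others) and the highest summed stromal markers (3967 TPM, beside 327 to 1132), and the part of this in its mitotic counts was not tested. In DOX 9 the epithelial (2018 TPM) and stromal (1078 TPM) sums, like those of the other 4 marker lists, were inside the range of the other libraries, and the part of cell makeup in its low member counts was not tested.

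DMSO 20 and DOX 19 were uneven from gene to gene. In DOX 19, Mki67, Top2a and Mcm2 had 132, 334 and 514 normalised counts, the lowest of all libraries, while Tpx2 and Bub1b had 17811 and 2887, second only to DMSO 15 for Tpx2 and the highest of all for Bub1b. The SD over mitotic genes of the deviation from each gene's mean was 0.862 (log2) in DOX 19 and 0.757 in DMSO 20, beside 0.223 to 0.406 in the other 6 libraries. Over the 10716 genes with a mean of at least 500 the same SD was larger, at 1.53 in DOX 19 and 1.76 in DMSO 20, beside 0.520 to 0.754 in the others. Over S-phase genes it was 1.06 in DOX 19, 0.639 in DMSO 20 and 0.246 to 0.512 in the others. Among the 6 libraries without these 2, DOX 9 was the lowest in 16 of 20 S-phase genes and 28 of 29 mitotic genes, against 16.4% of the background.

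**Figure D5:**
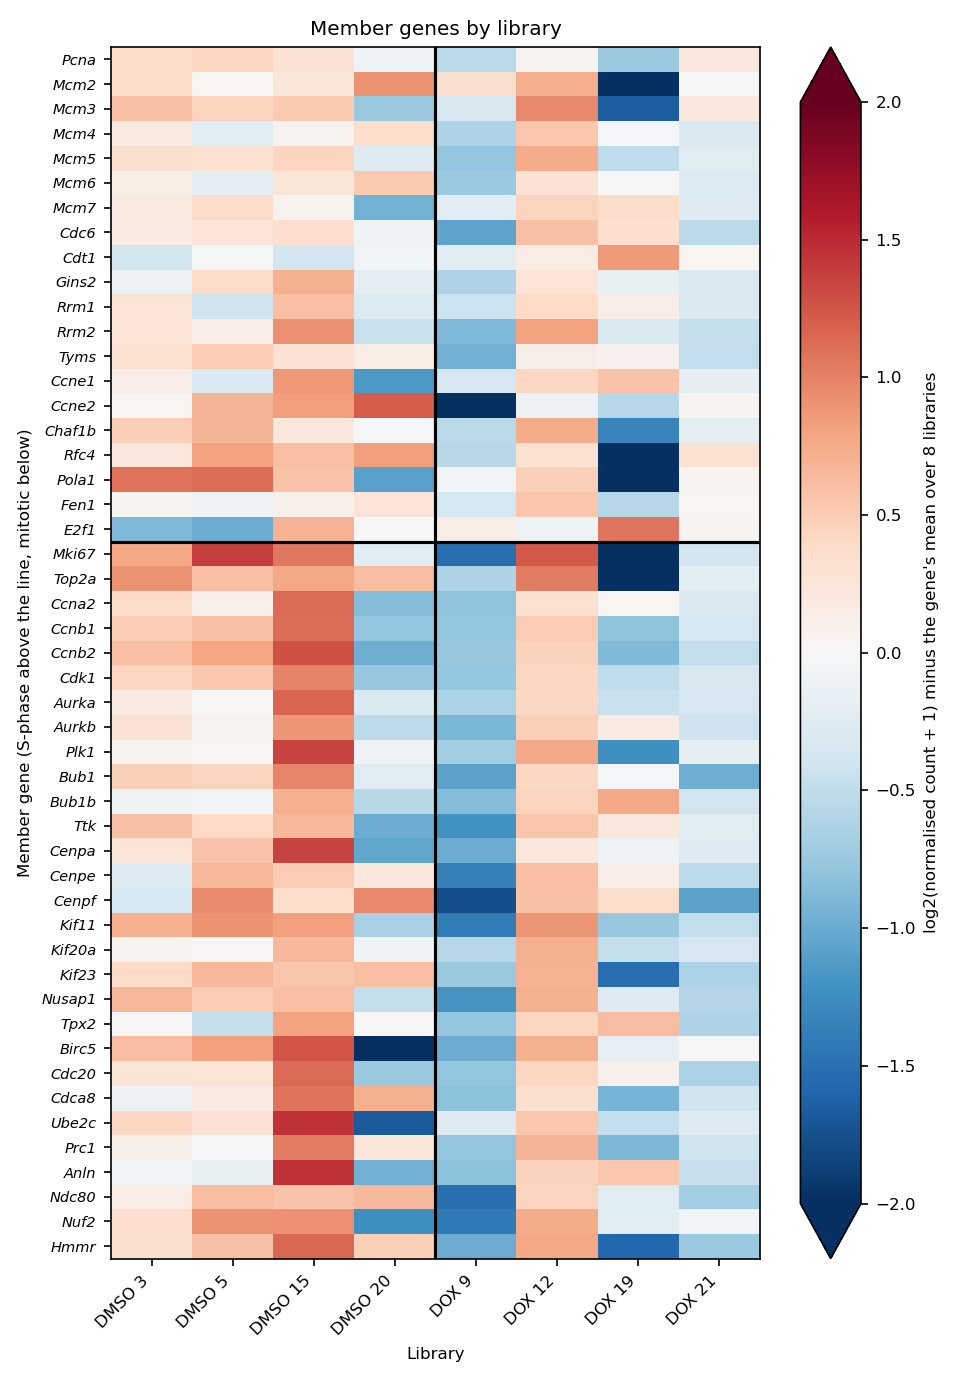
Each row is a member gene and each column a library, coloured by log2(normalised count + 1) minus the gene's mean over the 8 libraries (red above, blue below, colours end at -2 and 2). The mitotic rows are mostly red in DMSO 3, 5 and 15 and DOX 12, strongest in DMSO 15, and blue in DOX 9 and, more weakly, DOX 21. DMSO 20 and DOX 19 mix strong red and blue.

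The counts of called genes, and of genes past a p or fold threshold, depended on single libraries. With 1 library left out, 25 (without DMSO 15) to 29 of 29 mitotic genes had fitted values below 0. For S-phase genes the range was 14 (without DOX 9) to 18 of 20 (without DMSO 20). Without DOX 12, DESeq2 called 2 of 29 mitotic genes and 0 S-phase genes (32 of 15121 genes called, 0.212%). These were Kif23 (log2 fold change -1.47, SE 0.294, DESeq2's adjusted p = 0.000985) and Hmmr (-1.73, SE 0.345, adjusted p = 0.000985). At an unadjusted p under 0.05 on the lower side, 5 S-phase and 16 mitotic genes passed without DOX 12, against 2.37% of all genes. Without that library 10 S-phase and 25 mitotic genes were at least 1.5-fold lower (against 12.1% of the 10716 genes with a mean of at least 500), and the medians were -0.57 and -0.95. The edgeR test without DOX 12, run after these calls were seen, called 0 members and 0 of 15688 genes (0.0%), with adjusted p = 0.9997 for Kif23 and Hmmr. It had 4 S-phase and 14 mitotic genes at an unadjusted p under 0.05, against 2.62% of all genes. No label sets DOX 12 apart from the other DOX libraries, and all DOX libraries are used in the values above.

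Leaving out other libraries moved the values too. Without DMSO 15, 9 mitotic genes were at least 1.5-fold lower (against 11.9% of the same 10716 genes), the medians were -0.18 (S-phase) and -0.32 (mitotic), and 0 mitotic genes had an unadjusted p under 0.05 (against 3.28% of all genes on the lower side), while 1 S-phase gene had one on the lower side and 1, E2f1, on the higher. Without DOX 9, 8 mitotic genes were at least 1.5-fold lower (against 12.0%), with medians of -0.15 and -0.46 and 0 mitotic genes at an unadjusted p under 0.05 (against 2.24%). Without DMSO 20, 7 mitotic genes had an unadjusted p under 0.05 on the lower side (against 2.72% of all genes). Without both DMSO 20 and DOX 19, fitted values of 29 of 29 mitotic genes and 16 of 20 S-phase genes were below 0, with medians of -0.75 and -0.30, and 5 mitotic and 2 S-phase genes had an unadjusted p under 0.05 on the lower side (against 3.32%). DESeq2 called 0 members in each of these 4 fits, in which 0.575%, 0.163%, 0.314% and 0.296% of all genes were called.

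Other genes of these pathways, 138 in 5 lists, were not called by DESeq2 either (0 of 138), although 106 had fitted values below 0, with a median of -0.30. At an unadjusted p under 0.05 there were 13 on the lower side and 2 on the higher, 10.9% of 138. Beside this stood 4.67% of all genes and 6.41% of genes with a mean normalised count of at least 500. Groups did not overlap for 9 of the 138 (7 of them lower), against 3.63% of genes with a mean normalised count of at least 500. Of 20 replication initiation genes, 16 were below 0 (median -0.25), and Gmnn (geminin, the inhibitor of Cdt1), Orc4 (an origin recognition subunit) and Gins1 had the smallest p. Gmnn had 1385, 2237, 1937 and 1497 normalised counts in DMSO and 516, 1267, 1270 and 878 in DOX libraries, without overlap (log2 fold change -0.84, DESeq2's adjusted p = 0.806), while Orc4 and Gins1 had -0.46 and -1.05. Of 28 replication fork and nucleotide genes, 21 were below 0 (median -0.20), led by Rpa3 (a subunit of the single-strand DNA binding protein RPA), Asf1b (a histone chaperone) and Tipin. Rpa3 had 2969, 4305, 3247 and 2511 against 1364, 1880, 2161 and 2391, again without overlap (log2 fold change -0.74, DESeq2's adjusted p = 0.544), and Asf1b and Tipin had -0.80 and -0.50.

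The kinetochore and condensin list had the largest share at an unadjusted p under 0.05, 6 of 28 on the lower side and 1 on the higher (25.0%), with 23 of 28 fitted values below 0 and a median of -0.54. Ska2, of the complex that couples kinetochores to microtubules, had 1535, 1497, 1595 and 2142 normalised counts in DMSO and 743, 1183, 591 and 958 in DOX libraries. The groups did not overlap, as DMSO 5 stayed above DOX 12. Its log2 fold change was -0.96 (DESeq2's adjusted p = 0.233), the smallest adjusted p of the 138, and without DOX 12 it passed the test (log2 fold change -1.15, DESeq2's adjusted p = 0.0281). The inner kinetochore genes Cenpm and Cenpw had -1.13 and -0.80 (DESeq2's adjusted p = 0.407 and 0.442). The gene on the higher side was Zwint, named after its value was seen (log2 fold change 0.44, DESeq2's adjusted p = 0.773).

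Of 42 spindle, checkpoint and cytokinesis genes, 35 had fitted values below 0 (median -0.50), with 4 on the lower and 1 on the higher side at an unadjusted p under 0.05 (11.9%). Cks2, a small Cdk-binding subunit, had 2601, 3276, 4546 and 2784 against 1469, 1739, 1838 and 2310 normalised counts, without overlap (log2 fold change -0.84, DESeq2's adjusted p = 0.273). With sex as a covariate, a fit in which 43 of 16063 genes (0.268%) were called, Cks2 passed the test (log2 fold change -0.83, DESeq2's adjusted p = 0.00183). Mad1l1, which carries Mad2 to unattached kinetochores, was on the higher side, with 1541, 1323, 1372 and 903 against 1565, 2062, 3160 and 1910 (log2 fold change 0.76, DESeq2's adjusted p = 0.711). Its groups did not overlap either, and DOX 19 was the highest. Depdc1a had a log2 fold change of -1.54 (DESeq2's adjusted p = 0.736), and without DOX 12 it passed the test at -2.27 (DESeq2's adjusted p = 0.0174). The 20 E2F, RB and DREAM regulators, which act upstream of both member lists, had 11 fitted values below 0, a median of -0.05 and 0 genes under 0.05 by unadjusted p, by DESeq2 and by edgeR alike. In that list E2f7, a repressor among the E2F factors, had -0.93, E2f5 had -0.39 and Rbl2, the pocket protein p130 of the DREAM complex, had 0.30 (DESeq2's adjusted p = 0.999 for each). Whether the lists differ from each other was not tested.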

How the data were processed

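RNA-seq was compared between 4 DOX and 4 DMSO libraries, grouped by their titles. Per the labels and the study's methods, poly-A SMART-Seq v4 libraries were read as 75 bp pairs. The submitters' processing notes name STAR, featureCounts, DESeq2 and the builds mm10 and GRCm38, and counting options are not given in the sources used here. The deposited tables give each RefSeq transcript a raw count and the authors' TPM, 33068 transcripts per library. An FPKM column was not used. Counts and TPM were summed by symbol, and 36 of 49 members have 1 transcript. In 11 of the other 13 the transcript totals lay within 98% of each other (the exceptions were Ttk and Birc5), so sums appear to count shared reads repeatedly. Log2 fold changes of the 13 from the transcript with most counts differed by at most 0.038.

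DESeq2 1.42.0 (size factors, Wald test, alpha of 0.1, Benjamini-Hochberg adjustment over all genes) was the main test, as in the study's methods, with genes called from 1.5-fold upwards where the adjusted p was 0.05 or less. Alternatives were edgeR 4.0.16 quasi-likelihood, limma 3.58.1 (voom), other size factors, filters, features, thresholds and covariates, and leaving out libraries. All tests were two-sided. The fits were also run on simulated counts that varied less within groups than these libraries, so that run does not measure their power here. Single members were also compared by exact permutation of log2 normalised counts (70 assignments). The pseudocount on the log2 scale was 1. Member counts were at least 100 in each library, but amplified reads are not independent molecules, so the sampling of molecules is not known. Motifs were searched as letters in RefSeq promoter windows, and exon overlaps with protein-coding genes in GENCODE. The members and lists were chosen with earlier results of these data known. Named genes were those called, at an unadjusted p under 0.05 or without overlap, the 6 smallest p and 3 highest mean TPM (summed) in each member list, and Pcna, Mcm2, Mki67, Top2a, Cdk1 and Ccnb1. In each pathway list the 3 smallest p were named.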

Additional observations from a re-analysis of the deposited data

Results flagged for a closer look

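A pair of values stood far from the other libraries of their group, by a gap above Dixon's 95% critical value for groups of 4. Of 52 groups of 4 values examined, 2 passed, where chance alone flags about 1 in 20, or 2.6. The log2 normalised count of Ndc80, a kinetochore gene of the mitotic list, was 10.18 in DMSO 3, beside 10.60 to 10.68 in the other DMSO libraries (gap of 0.836 of the range). The number of genes detected in DOX 19 was 13599, beside 17342 to 17903 in the other DOX libraries (gap of 0.870).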

How the results depend on the processing

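No paired analysis was possible because the library numbers are not shared between the groups. The S-phase list had 0 genes called under all 22 alternatives, and the mitotic list had 0 under all but 1. Both medians and both list means stayed below 0 throughout. Leaving out 1 library at a time, by DESeq2 and for DOX 12 also by edgeR, gave 0 to 2 mitotic genes called, 0 to 2 of the other 138 genes called, 8 to 26 mitotic genes at least 1.5-fold lower, medians of -0.57 to -0.15 (S-phase) and -0.95 to -0.32 (mitotic), and differences of list means of -0.57 to -0.25 and -0.95 to -0.44. The calls came without DOX 12 (Kif23, Hmmr, Ska2 and Depdc1a), and sex as a covariate gave 1 call among the 138 (Cks2). The direction of the fitted change turned in at least 1 alternative for 12 of 49 members, from below 0 in 9 and from above 0 in 3. Without DMSO 20 and DOX 19 these were Mcm2 (0.16), Fen1 (0.11), Mcm7 (-0.16), Ccne1 (-0.30) and Bub1b (-0.40). Without DMSO 15 they were Anln (from -0.30 to 0.38), Tpx2 (0.18), Rrm1 (0.091) and Ube2c (0.010), and without DOX 9 Tpx2 (0.070), Cdc6 (0.025) and Mcm4 (0.013). Mcm3 (0.093) and Fen1 (0.045) turned without DOX 19 and Tpx2 (0.043) without DOX 21, while leaving out 1 library gave lowest values of -0.36 for Fen1 and -0.38 for Tpx2. Mcm7, Ccne1 and Bub1b also turned under other alternatives. The cause was not tested. Over all genes, 25 were called in the main test, from 14 (without DMSO 3) to 75 (without DMSO 15) by DESeq2 elsewhere, and 0 by edgeR and limma-voom. The median of all genes stayed between -0.10 and -0.01. Library totals as size factors moved the member medians to -0.25 and -0.51. With low gene detection (DMSO 20 and DOX 19) as a covariate, 4 S-phase and 3 mitotic genes had an unadjusted p under 0.05 by DESeq2. The share of all genes under 0.05 in that fit was not taken, so these counts have no background. That fit called 0 members, against 40 of 16161 genes, and its smallest adjusted p of a member was 0.175. Levels in TPM were lower for the transcript with most counts than for the sum by symbol where a gene has several transcripts, as in Tpx2 (13.9 and 71.3 TPM). The lowest member count in any library was 100, and what depth adds to the spread of DMSO 20 and DOX 19 was not tested.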
